A study of Mus musculus with 15 samples.

Results

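The genes described here are the subunits of the nicotinic acetylcholine receptor found in muscle, the neuronal-type subunit gene Chrna2, and the genes that build the postsynaptic side of the neuromuscular junction, in mouse gastrocnemius. They were listed by symbol and chosen by the measured difference in tag counts between knockout and control muscle, which was known when the list was drawn up. Of the 10 genes listed (Chrna1, Chrna2, Chrnb1, Chrnd, Chrne, Chrng, Musk, Rapsn, Dok7 and Agrn), 9 had a row in the count table of 13602 gene symbols. Chrng has no row in the table used here, and 8 genes passed the low-count filter. The smallest total of a row with a symbol was 22 tags, and each such row had tags in at least 6 libraries. Here and below, a gene without a row may therefore have had few tags rather than none. Chrnd, with 0 to 9 tags in a library, did not pass it and was not tested.

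Muscle RNA came from the gastrocnemius, a mostly fast-twitch muscle of the calf. The controls were 8 male wild type (floxed) mice, and the knockouts were 7 male mice with Cpt1b deleted in skeletal muscle. Cpt1b is the muscle form of the enzyme that passes long-chain fatty acids into mitochondria as acylcarnitines. By the sample titles and the protocol both groups ate chow for 12 to 14 weeks, but the diet label of every one of the 15 samples is 45% HFD. Neither the promoter that drove the recombinase nor the age of the mice is given in the sources used here. Mice and libraries are equal in number, so each library was taken as 1 animal.

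At the neuromuscular junction a motor axon releases acetylcholine onto a pentameric ion channel packed into the muscle membrane. In adult fibres the channel is made of alpha (Chrna1), beta (Chrnb1), delta (Chrnd) and epsilon (Chrne) subunits, and in fetal or denervated muscle the gamma subunit (Chrng) takes the place of epsilon. Nerve-derived agrin (Agrn) acts through Lrp4 on the receptor tyrosine kinase MuSK (Musk), which with its adaptor Dok7 leads the scaffold protein rapsyn (Rapsn) to cluster the receptors. Chrna2 encodes an alpha subunit best known from neurons, where it forms channels with neuronal beta subunits.

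In SAGE only a short tag next to the last cutting site of an enzyme in the transcript is read and counted, so every gene is measured through 1 short stretch and a count does not scale with transcript length. The labels do not name the enzyme. The stretches below were predicted here from GENCODE M21 transcripts on GRCm38 as the 27 bases that start at the last CATG, the usual SAGE anchoring site, and they are shown because they are the stretches through which these 10 genes would be counted if that site was used. The deposited table names no tags. Capitals mark the CATG.
Chrna2: CATGtgagtgaaatgtcaaaataaagc
Chrna1: CATGcatagcattttatcacctattaa
Chrnb1: CATGgtgccttggacccacccgaaatg
Chrne: CATGagcctgcactggcacccacctct
Chrnd: CATGgtcgggagagctcccttccggaa
Chrng: CATGcatatagtgcagacatatgcaca
Musk: CATGtgcgagagagcagagggaacggt
Rapsn: CATGaagccgggctttgtgtgacttca
Dok7: CATGttgctctattgcggtttttaaaa
Agrn: CATGaaataaagtctgaaaaccttaaa
The Chrna2 tag lies at chr14:66152904-66152930 on the plus strand, in the 3' UTR of exon 7 of 7, and starts 45 bases before the transcript end. The Chrna1 tag lies at chr2:73563239-73563265 on the minus strand, in the 3' UTR of exon 9 of 9, 51 bases from the end. The Chrne tag (chr11:70614951-70614977, minus strand) and the Rapsn tag (chr2:91045497-91045523, plus strand) span the end of the coding sequence. The Musk tag (chr4:58373677-58373703, plus strand) lies wholly inside the coding sequence of the last exon, 626 bases from the transcript end, and the Chrnd tag (chr1:87198866-87198892, plus strand) lies 1205 bases from its end. None of the 10 predicted tags was found in the transcripts of another gene. Over the 45 pairs of tags, at least 14 of the 23 bases after the CATG differed. Chrna2, Dok7 and Agrn each have 2 different predicted tags among their complete coding transcripts, and the one carried by most transcripts, or else by the principal transcript, is shown.

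Library totals ran from 8334436 tags in control 1 to 19397255 in knockout 4. Control 7 and knockout 4 lay farthest out on the first principal component, which held 44.6% of the variance. Several results are also given without them. Levels below are CPM, tag counts scaled to a common library total with TMM factors. Differences are given as log2 fold changes, knockout minus control, with the standard error (SE) of edgeR's quasi-likelihood fit. The targeted gene, Cpt1b, stood at 4.44 to 13.1 CPM in controls (mean 7.64 ± 3.17, SD, n = 8) and 1.10 to 6.46 CPM in knockouts (3.79 ± 1.64, SD, n = 7), with overlapping groups (log2 fold change -1.03 ± 0.31, edgeR adjusted p = 0.103). It was called lower by DESeq2 (adjusted p = 0.0272), by edgeR without control 7 (adjusted p = 0.0487) and by edgeR without control 7 and knockout 4 (adjusted p = 0.0432). Its tag may lie outside the deleted part, which the labels do not give.

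Chrna2 was the member with the largest difference between the groups. In controls it gave 5 to 26 tags a library (112 in all), and its level was lowest at 0.481, with a median of 0.944 and a maximum of 1.78 CPM. In knockouts it gave 86 to 226 tags (871 in all), and its level was lowest at 6.81, with a median of 8.94 and a maximum of 13.5 CPM. All 7 knockout libraries lay above all 8 controls. Knockout 2 was the highest and knockout 7 the lowest knockout, and control 3 was the highest control. The means were 1.07 ± 0.401 CPM (SD, n = 8) and 9.47 ± 2.35 CPM (SD, n = 7), a log2 fold change of 3.10 ± 0.23 (SE), or 8.57-fold. By fold change Chrna2 ranked 5 from the top of the 11062 genes tested. The low control counts set the precision of the baseline. The exact 95% Poisson interval around the 5 tags of control 2 ran from 1.62 to 11.7, and that around the 26 tags of control 3 from 17.0 to 38.1, counting error only.

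Among the muscle subunits, Chrna1, which carries the acetylcholine-binding alpha chain, was also higher in knockout muscle, by a smaller factor and from a far higher level. Its control libraries ran from 63.9 over a median of 81.0 to 95.6 CPM, and its knockout libraries from 88.6 over 145.8 to 174.5 CPM. The groups overlapped: knockout 4 (91.2 CPM) and knockout 5 (88.6 CPM) fell within the control range, while the other 5 knockouts lay above every control. The means were 81.2 ± 11.6 (SD, n = 8) and 134 ± 33.4 CPM (SD, n = 7), and the log2 fold change was 0.72 ± 0.16 (SE), or 1.65-fold. Without control 7 and knockout 4 it was 0.75.

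The beta and epsilon subunits differed by less than their spread. Chrnb1, the beta chain, ranged from 19.3 over a median of 38.1 to 44.5 CPM in controls and from 22.2 over 30.2 to 54.8 CPM in knockouts. Both groups covered nearly the same range, with knockout 3 highest and control 7 lowest. Its log2 fold change was -0.09 ± 0.20 (SE), -0.18 without control 7 and -0.01 without knockout 4. Chrne, which marks the adult form of the receptor, ranged from 3.76 over 4.58 to 6.26 CPM in controls and from 3.52 over 4.97 to 6.53 CPM in knockouts. The highest library of each group was control 7 and knockout 4, and the groups overlapped almost fully. Its log2 fold change of 0.06 ± 0.16 (SE) became -0.03 without knockout 4. Chrnd, the delta chain, gave no tag in control 8 and at most 9 in any library. Its control mean was 0.249 ± 0.167 CPM (SD, n = 8) and its knockout mean 0.316 ± 0.153 CPM (SD, n = 7), from 27 and 26 tags in all. Without the low-count filter its log2 fold change was 0.19 ± 0.52 (SE).

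Of the genes that organise the synapse, Rapsn, Agrn, Musk and Dok7 did not pass, their groups overlapped, and their estimates had both signs. Rapsn, the scaffold that clusters the receptor, ranged from 7.35 over 10.2 to 13.8 CPM in controls and from 8.96 over 12.9 to 19.4 CPM in knockouts. Knockouts 1, 5 and 7 lay above every control, and knockout 4 lay lowest of the knockouts. The log2 fold change was 0.42 ± 0.16 (SE), and 0.48 without control 7 and knockout 4. Agrn, the organising signal, of which muscle also makes its own forms, ranged from 7.42 over 8.62 to 10.7 CPM in controls and from 6.94 over 10.7 to 13.4 CPM in knockouts (log2 fold change 0.17 ± 0.15, SE, and 0.08 without knockout 4). Its 3 highest knockouts lay above every control and its lowest below every control.

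Musk, the kinase at the head of the clustering pathway, and its adaptor Dok7 had negative estimates. Musk ranged from 2.61 over 4.17 to 6.33 CPM in controls and from 0.905 over 2.61 to 4.79 CPM in knockouts. Knockouts 1, 3, 4 and 5 lay below every control, with knockout 4 far lowest at 19 tags. The log2 fold change was -0.53 ± 0.29 (SE), and -0.36 without knockout 4. Dok7 ranged from 1.83 over 2.21 to 3.0 CPM in controls and from 1.39 over 1.87 to 2.98 CPM in knockouts (log2 fold change -0.19 ± 0.19, SE). Its 3 lowest knockouts lay below every control, and knockout 5 lay near the highest control.

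**Figure D1:**
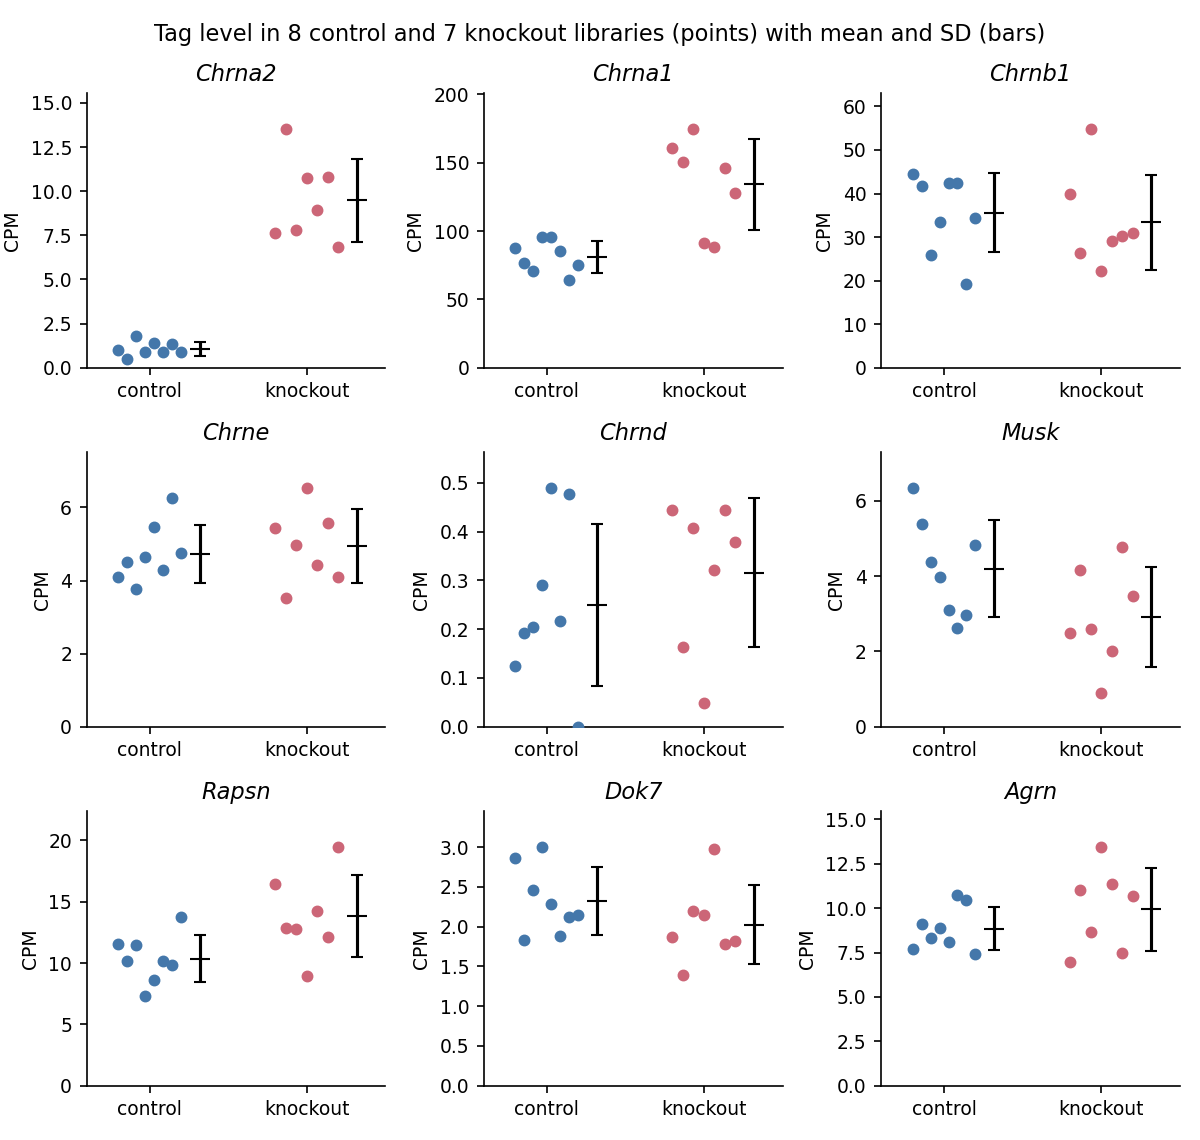
Level of each of the 9 measured genes in CPM (vertical axes, each from 0) in 8 control and 7 knockout libraries; each point is a library and the black bars give the mean and SD. The knockout points of Chrna2 lie between 6.81 and 13.5 CPM, all above the controls, and in the other 8 panels the groups overlap.

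Of the 8 genes tested, 2 passed an edgeR adjusted p of 0.05, both higher in knockouts (Chrna2 and Chrna1), and none passed in the lower direction. Over all 11062 genes, 2.17% passed, 1.67% higher and 0.497% lower. All knockouts lay above all controls in 0.967% of genes and the groups did not overlap in either direction in 1.19%. Chrna2 was the 1 member of which that was true. As this contrast chose the genes, nothing is read from these counts. Across all genes the median log2 fold change was 0.0047, with quartiles at -0.19 and 0.22. In bulk muscle, a change in the number of cells or junctions cannot be told apart from a change in RNA per cell.

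The make-up of the subunit tags shifted with these differences. Within each library the tags of the 5 measured subunits were summed and each subunit was given as a share of that sum. Chrna2 made up 0.389% to 1.74% of subunit tags in controls (median 0.752%) and 3.23% to 8.23% in knockouts (median 5.60%). The control share of Chrna1 was 66.3% ± 3.25 (SD, n = 8) and its knockout share 73.2% ± 3.64 (SD, n = 7). The Chrnb1 share was 28.6% ± 4.4 (SD, n = 8) and 18.3% ± 3.28 (SD, n = 7), beside the overlapping levels in CPM above. Shares of a sum move together. Chrne made up 3.97% ± 1.22 (SD, n = 8) and 2.86% ± 1.07 (SD, n = 7). The Chrna2 share did not overlap between the groups.

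**Figure D2:**
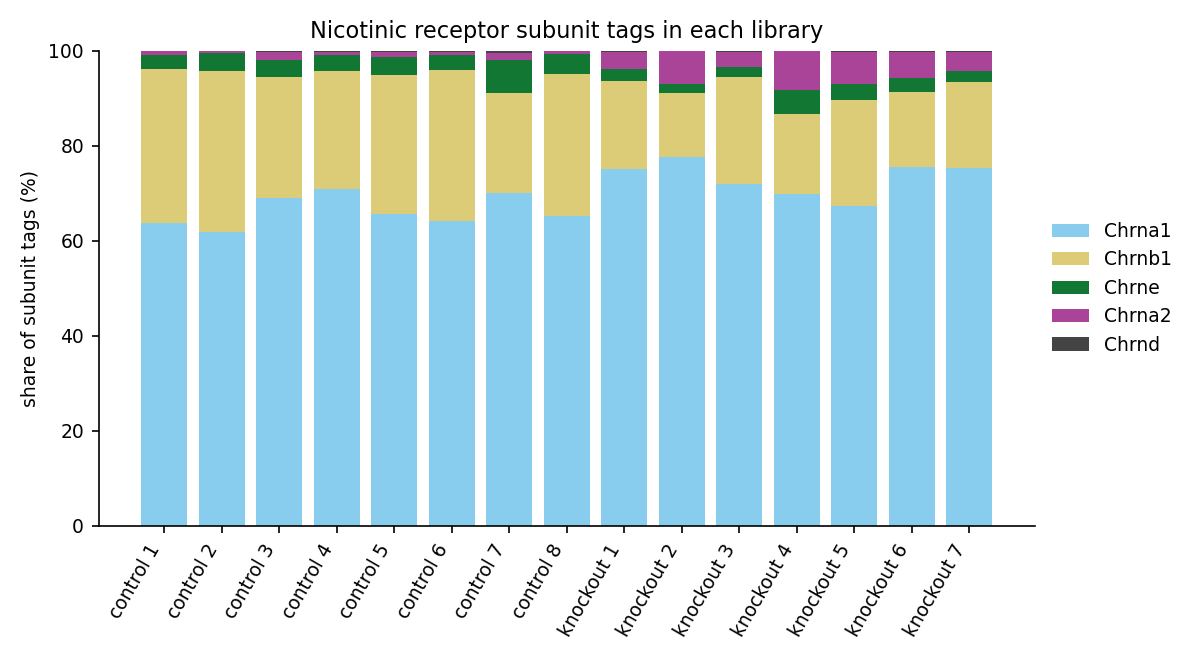
Share of receptor subunit tags (%, vertical axis from 0 to 100) taken by each of 5 subunit genes in every library, stacked by gene. The Chrna2 band is at most 1.74% in the 8 control bars and at least 3.23% in the 7 knockout bars, and Chrna1 and Chrnb1 fill most of every bar.

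Because a tag count does not scale with length, levels can be set side by side between genes, although tags can be captured with unequal efficiency. In controls the order of mean CPM was Chrna1, Chrnb1, Rapsn, Agrn, Chrne, Musk, Dok7, Chrna2 and Chrnd. Rapsn and Agrn overlapped, with Rapsn the higher in 5 of 8 libraries, and so did Chrne and Musk, with Chrne the higher in 4 of 8. In knockouts Chrna2 moved up to stand between Agrn and Chrne. Its level exceeded those of Chrne, Musk and Dok7 in 7 of 7 knockouts and in 0 of 8 controls. It exceeded Agrn in 3 and Rapsn in 2 of the 7 knockouts, and it stayed below Chrna1 and Chrnb1 in all 15 libraries. A subunit best known from neurons therefore had more tags in knockout muscle than the adult epsilon subunit. Protein was not measured.

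The members also differed in how much they varied among control mice. The SD of log2 CPM over controls was set beside that of 500 genes of like mean log2 CPM over all 15 libraries. As Chrna2 was higher in knockouts, its 500 genes match a level above its control level, and its percentile is read with that limit. Dok7 (SD 0.24), Agrn (0.19) and Chrne (0.23) varied little, at percentiles 3.2, 8.8 and 11.6 of those genes. Chrna2 (0.49) and Chrnb1 (0.42) lay at percentiles 67.2 and 73. Chrna1 stood at 24.4, Rapsn at 41 and Musk at 56.4.

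Whether members vary together from mouse to mouse, apart from the group difference, was asked on log2 CPM with each group's mean removed. None of the 28 pairs of tested members passed a Benjamini-Hochberg adjusted permutation p of 0.05 over the 15 libraries. The strongest pair was the alpha and beta chains, Chrna1 and Chrnb1 (Pearson r = 0.69, permutation p = 0.0045, adjusted p = 0.127; Spearman rho = 0.68, permutation p = 0.0080, adjusted p = 0.225). Within the groups r was 0.75 in the 8 controls and 0.70 in the 7 knockouts. It was 0.72 without the 2 libraries farthest from the median and 0.54 without control 7 and knockout 4. For Chrna2 and Chrna1 the estimate was near 0 and did not pass (r = -0.14, permutation p = 0.585, adjusted p = 0.861; rho = -0.23, permutation p = 0.416, adjusted p = 0.896). Its strongest estimate was with Chrnb1 and was negative (r = -0.55, permutation p = 0.0435, adjusted p = 0.295; rho = -0.53, permutation p = 0.0523, adjusted p = 0.290).

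The same residuals were set against the log2 of the library total for the 8 tested genes. Musk was lower in larger libraries (r = -0.81, permutation p = 0.0007, adjusted p = 0.0056; rho = -0.64, permutation p = 0.014, adjusted p = 0.0872). Within the groups r was -0.82 in controls and -0.83 in knockouts. It was -0.63 without the 2 libraries farthest from the median total and -0.62 without control 7 and knockout 4. Agrn was higher in larger libraries (r = 0.64, permutation p = 0.0105, adjusted p = 0.042; rho = 0.60, permutation p = 0.0218, adjusted p = 0.0872), with r = 0.63 in controls and 0.68 in knockouts. For Agrn r was 0.49 without the 2 farthest libraries and 0.39 without control 7 and knockout 4. The rank correlations of both genes did not pass adjustment. The part of library size in the group differences of Musk and Agrn was not tested. For Chrna2 (r = 0.28, adjusted p = 0.370) and Chrna1 (r = -0.44, adjusted p = 0.238) no permutation test passed.

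**Figure D3:**
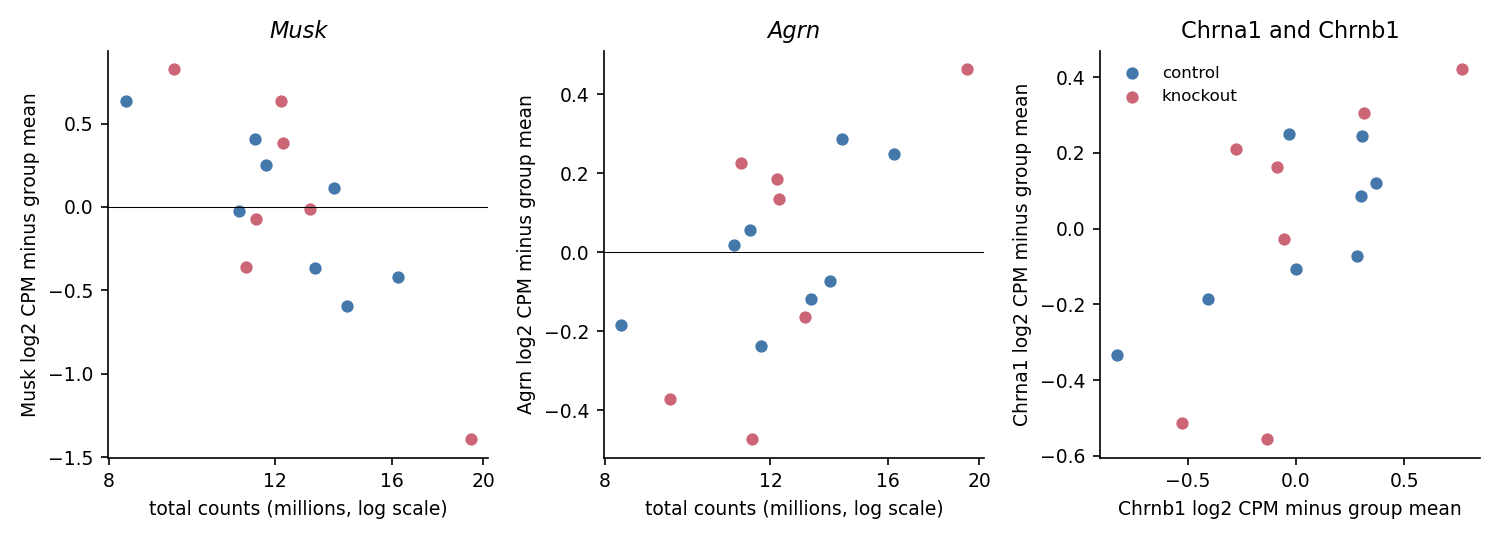
Log2 CPM minus the mean of its group for Musk and Agrn against the total counts of the library (log axis), and for Chrna1 against Chrnb1; each point is 1 of 15 libraries. Musk falls with library total with r of -0.81, most of all at knockout 4, while Agrn has r of 0.64 and the pair of subunits r of 0.69.

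The upstream sequences of 7 of the 10 members had entries in the RefSeq promoter table (GRCm38.p6). Those of Chrna1, which was called higher, and Chrne, which was not called, are shown because both are subunit genes long studied for E-box and N-box elements. Each is the 250 bases before the start site, with matches to the E-box CANNTG and the N-box TTCCGG (or CCGGAA on the other strand) in capitals.
Chrna1: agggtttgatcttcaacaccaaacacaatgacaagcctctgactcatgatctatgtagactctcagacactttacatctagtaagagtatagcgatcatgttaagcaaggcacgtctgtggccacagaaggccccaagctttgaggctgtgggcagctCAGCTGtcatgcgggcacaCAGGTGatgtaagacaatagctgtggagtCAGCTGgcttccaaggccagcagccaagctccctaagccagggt
Chrne: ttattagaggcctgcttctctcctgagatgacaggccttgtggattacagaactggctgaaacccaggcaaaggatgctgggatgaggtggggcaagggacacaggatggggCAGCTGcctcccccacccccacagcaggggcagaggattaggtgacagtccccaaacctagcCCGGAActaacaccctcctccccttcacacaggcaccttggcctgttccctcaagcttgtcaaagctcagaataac
The Chrna1 stretch is at chr2:73580339-73580588 and the Chrne stretch at chr11:70619195-70619444, both on the minus strand. Chrna1 held 3 E-boxes, of which 2 read CAGCTG, and Chrne held 1, which reads CAGCTG, with 1 N-box. Of 32851 promoters of the same length, 66.2% held an E-box, 13% held CAGCTG, 1.26% held at least 2 CAGCTG and 12.0% held an N-box. CAGCTG is one of the forms of CANNTG, so these counts overlap. Other members held as many E-boxes as Chrna1. Chrng held 3, of which 2 read CAGCTG. Chrnb1 and Musk, neither of them called, also held 3 each, with 0 and 1 CAGCTG. Agrn and Dok7 held at most 1 E-box in an entry. Chrna2 had no entry. A relation of these elements to the levels was not tested.

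To see whether the rest of the junction moved, 39 other genes of synapse organisation were examined. Of these, 35 had a row and 33 were tested, and edgeR called 0 of them, with 2 at an unadjusted p under 0.05, beside 2.17% called (13.6% at an unadjusted p under 0.05) over all genes. Estimates were positive for 15 and negative for 18, with a median log2 fold change of -0.0044. DESeq2 and limma voom also called 0. The lowest p belonged to Lrp4, the agrin receptor that partners MuSK, at 0.621 to 1.96 CPM in controls and 0.890 to 3.33 CPM in knockouts (log2 fold change 0.76 ± 0.28, edgeR adjusted p = 0.213). Next was Alg2, a glycosylation enzyme tied to inherited myasthenia (-0.32 ± 0.15, adjusted p = 0.342). Ache, which breaks down acetylcholine, stood at 6.81 ± 0.792 CPM (SD, n = 8) and 6.52 ± 1.52 CPM (SD, n = 7). Colq, the collagen tail that anchors it, stood at 1.94 ± 0.551 (SD, n = 8) and 2.17 ± 0.652 CPM (SD, n = 7).

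Of 23 other cholinergic receptor genes and their chaperones, 7 had a row and 3 were tested, and edgeR, DESeq2 and limma voom called 0, with 0 at an unadjusted p under 0.05. Over all genes edgeR called 2.17%, and 13.6% had an unadjusted p under 0.05, so 0 of 3 says little. Chrna3, Chrna5, Chrna7, Chrnb2 and Chrnb4, all subunits of neuronal receptors, had no row, which can mean few tags. The other subunit genes with a row were Chrna4, Chrna9, Chrna10 and Chrnb3, all under the filter, with group means between 0.133 and 0.733 CPM. Ric3, a receptor chaperone, had a log2 fold change of -0.42 ± 0.22 (edgeR adjusted p = 0.429), and Lynx1, a membrane-bound receptor modulator, one of 0.10 ± 0.24 (adjusted p = 0.857), which was 0.33 without control 7 and -0.09 without knockout 4. Chrna2 was the 1 neuronal-type subunit of these lists that passed the filter. It passed through the knockouts, which gave 86 to 226 tags a library, while the controls gave 5 to 26. Its passing therefore restates the group difference by which it was chosen. Without the filter the other 4 were tested and did not pass.

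Receptor subunit genes rise outside the synapse when a muscle loses its nerve, so 17 genes known to respond to denervation, in either direction, were examined. Of 13 tested, 1 was called higher, Dach2, beside 1.67% called higher over all genes. Dach2 is a transcriptional corepressor of Myog whose level is known to fall in denervated muscle. It rose from 3.26 ± 1.31 CPM (SD, n = 8) to 9.01 ± 3.19 CPM (SD, n = 7), with a log2 fold change of 1.45 ± 0.25 (SE, edgeR adjusted p = 0.0027). Knockout 3 (5.13 CPM) and knockout 6 (5.90 CPM) lay below control 7 (6.10 CPM), and the other 5 knockouts lay above every control. Without control 7 and knockout 4 the log2 fold change was 1.5. The other 12 did not pass, and 2 of the 13 had an unadjusted p under 0.05, beside 13.6% over all genes. The list's median was 0.12, but as the list mixes genes that respond in either direction, this median has no direction to read. Myog, the transcription factor that drives receptor genes after denervation, was under the filter, with a control mean of 0.446 ± 0.294 CPM (SD, n = 8) and a knockout mean of 0.791 ± 0.440 CPM (SD, n = 7). All 7 knockouts lay above its control median and 1 above every control. Whether denervation had a part in these levels was not tested. Ncam1, an adhesion molecule that spreads over denervated fibres, had a log2 fold change of 0.34 ± 0.21 (edgeR adjusted p = 0.508), and Runx1 one of 0.12 ± 0.20 (adjusted p = 0.793).

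**Figure D4:**
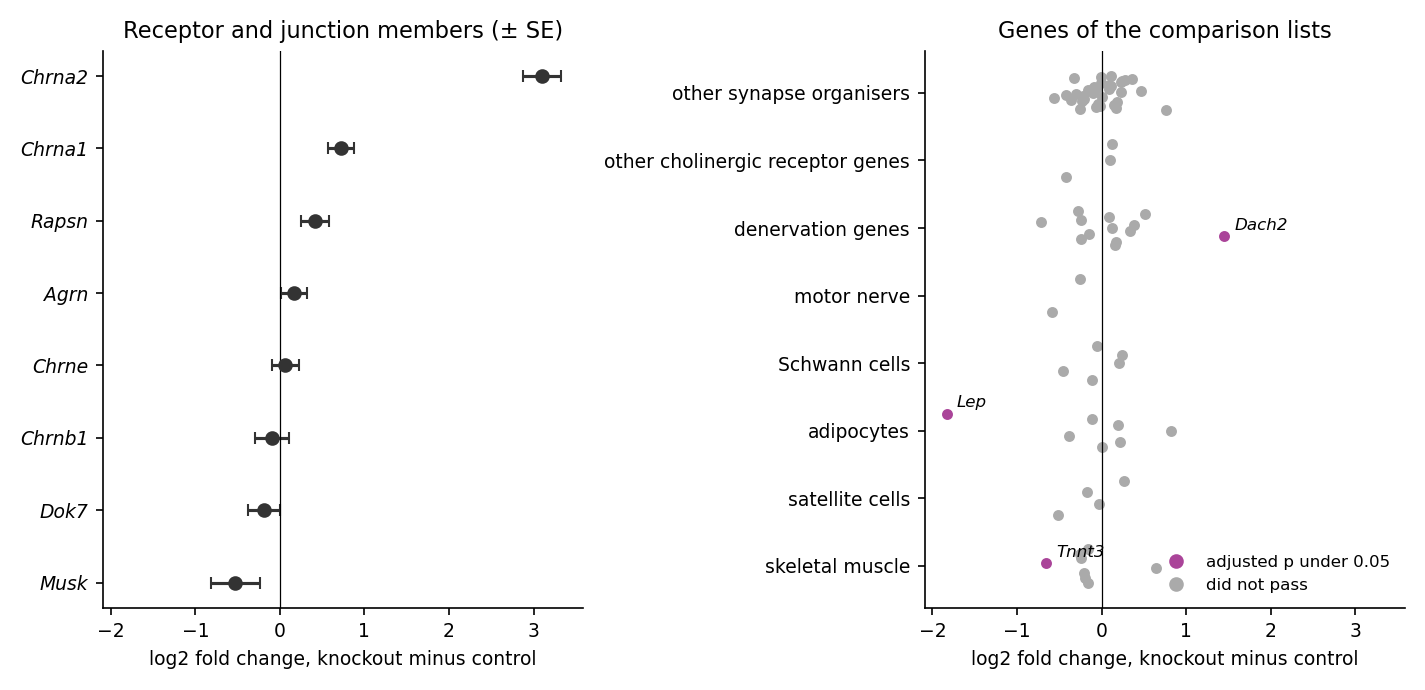
Log2 fold change of knockout minus control (horizontal axes) for the 8 tested members with their SE (left) and for every tested gene of 8 comparison lists (right, 1 point a gene, coloured where the edgeR adjusted p was under 0.05). Chrna2 at 3.10 stands far to the right of the other members, and among the lists Dach2 passed in the higher and Lep and Tnnt3 in the lower direction.

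Markers of other cells in the dissected muscle were read beside these results. Over all genes edgeR called 2.17%, 0.497% of them lower, and 13.6% had an unadjusted p under 0.05. With lists this short, 0 calls therefore say little about a change in these cells. Of 13 motor nerve genes 4 had a row and Chat, the acetylcholine-synthesising enzyme, had none. Both tested nerve genes had negative estimates that did not pass, 1 with an unadjusted p under 0.05: Prph, -0.59 ± 0.23 (edgeR adjusted p = 0.258, 5 of 7 knockouts below every control), and Stmn2, -0.26 ± 0.17 (adjusted p = 0.521). The nerve list summed to 13.7 to 21.5 CPM in controls and 9.29 to 15.9 CPM in knockouts. Most of that sum was Stmn2 (means 11.8 CPM in controls and 9.90 CPM in knockouts). Of 11 Schwann cell genes 9 had a row and 0 of 5 tested were called (0 at an unadjusted p under 0.05). Their sum ran from 52.3 to 143 CPM in controls and from 47.2 to 145 CPM in knockouts. Pmp22 had a log2 fold change of 0.24 ± 0.38 (edgeR adjusted p = 0.787) and S100b one of -0.11 ± 0.22 (adjusted p = 0.831). Of the satellite cell list 0 of 4 were called (0 at an unadjusted p under 0.05), with Pax7 at -0.52 ± 0.34 (edgeR adjusted p = 0.519) and Cdh15 at -0.18 ± 0.19 (adjusted p = 0.686). Over the 4 genes, estimates were positive for 1 and negative for 3, with a median log2 fold change of -0.10. Their sums were 18.4 to 30.1 CPM in controls and 16.1 to 29.0 CPM in knockouts, mostly Cdh15 (means 20.8 and 18.4 CPM). Of 7 adipocyte genes tested 1 was lower, Lep (-1.83 ± 0.43, edgeR adjusted p = 0.0295), a call lost in 9 of the fits that leave out 1 library. Over the 7 genes, estimates were positive for 4 and negative for 3, with a median log2 fold change of 0.0048. The adipocyte list summed to 864 to 1168 CPM in controls and 905 to 1644 CPM in knockouts, and Ucp1 and Cidea had no row. Most of that sum was Fabp4 (means 949 CPM in controls and 1105 CPM in knockouts), so it says little about the other adipocyte genes. All 8 genes of a skeletal muscle list, of general and fast-fibre genes, were present. They summed to 86667 to 115043 CPM in controls (median 108539) and 65894 to 111322 CPM in knockouts (median 87793). Most of that sum was Mylpf (means 75233 CPM in controls and 63103 CPM in knockouts). Estimates were negative for 7 of the 8, with a median log2 fold change of -0.20. Of these, Tnnt3, the fast troponin T, was lower (-0.65 ± 0.13, edgeR adjusted p = 0.0063), a call lost with a replicate block. The part of these cells in the levels of the receptor genes was not tested.

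Chrna2 lies on chromosome 14 (66135039 to 66152948, plus strand, GRCm38). Of 19 other annotated genes within 500 kb, 9 had a row and 7 were tested, and 1 was called, beside 2.17% over all genes. That gene was Ephx2, which encodes soluble epoxide hydrolase, an enzyme that converts fatty acid epoxides to diols. It lies head to head with Chrna2 (66084374 to 66124500, minus strand), with 10538 bases between the genes. Ephx2 ranged from 5.96 over a median of 6.83 to 8.80 CPM in controls and from 17.2 over 26.8 to 36.1 CPM in knockouts. The groups did not overlap. It rose by a log2 fold change of 1.90 ± 0.16 (SE, edgeR adjusted p = 8.4e-07), from 6.99 ± 0.886 (SD, n = 8) to 26.2 ± 6.88 CPM (SD, n = 7).

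The gene on the other side, Ptk2b, a focal adhesion kinase relative that ends 308 bases past the end of Chrna2 on the opposite strand, did not pass (log2 fold change 0.18 ± 0.37, edgeR adjusted p = 0.835). Trim35, a ubiquitin ligase family member farther out, had an estimate of 0.52 ± 0.17 (adjusted p = 0.142). It passed without control 7 (adjusted p = 0.030) and without control 7 and knockout 4 together (0.0468). Ccdc25, Scara3, Scara5 and Clu had estimates between -0.23 and 0.05 and did not pass. These moved with control 7 and knockout 4: Scara3 was at 0.41 without control 7 and -0.53 without knockout 4, and Scara5 at 0.12 and -0.48. Without both libraries Clu was at -0.55 and Ccdc25 at 0.21. With the group means removed, no relation of Chrna2 and Ephx2 passed over the 15 libraries (r = 0.03, permutation p = 0.918, adjusted p = 0.918 over 7 pairs; rho = -0.14, permutation p = 0.619, adjusted p = 0.619). Within the groups r was 0.12 in controls and -0.03 in knockouts, and it was 0.09 without the 2 farthest libraries. The smallest adjusted permutation p of the 7 pairs was 0.397 by Pearson's r and 0.262 by Spearman's rho.

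**Figure D5:**
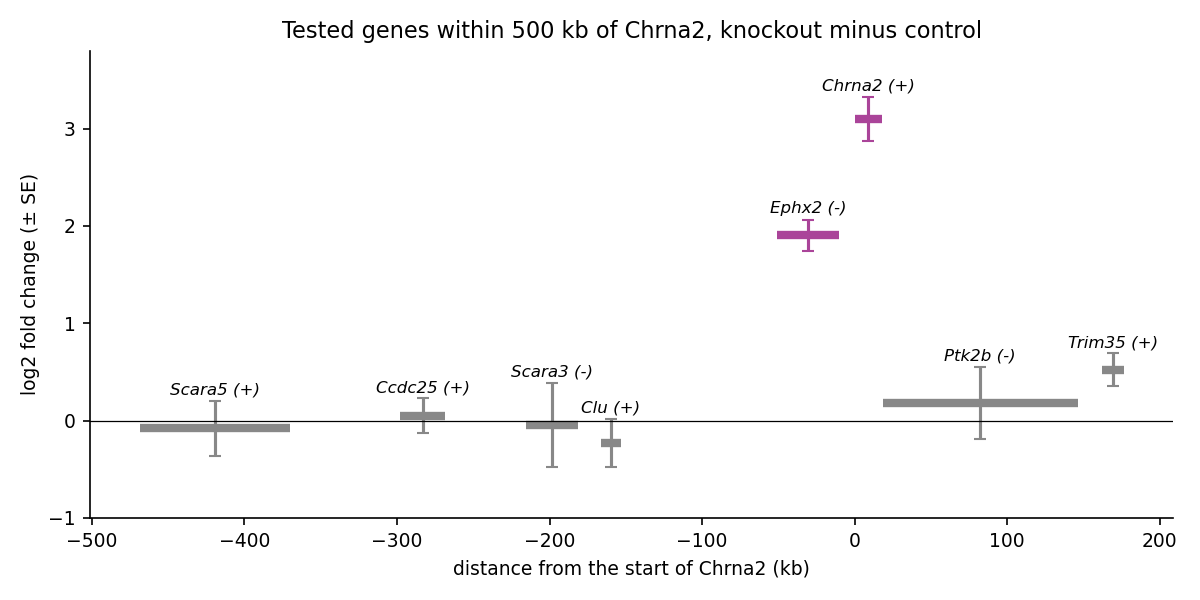
Log2 fold change of knockout minus control (vertical axis, with SE) of the 8 tested genes within 500 kb of Chrna2, including it, drawn as bars over their extent in kb from the start of Chrna2, with the strand in brackets. Chrna2 (3.10) and Ephx2 (1.90) stand above the 6 other genes, which lie between -0.23 and 0.52.

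The genes whose pattern over the 15 libraries was most like that of Chrna2 were found by the root mean square difference of centred log2 CPM, a measure into which the group difference enters. They were Rab15, a small GTPase (0.45), Acot2, a mitochondrial acyl-CoA thioesterase (0.47), Gm5595 (0.49), BC048679 (0.54) and Tmem171 (0.55). The median over all genes was 1.59. In each of the 5 all knockout libraries lay above all controls, which follows largely from choosing genes close to Chrna2 on this measure. Rab15 was the nearest in level too, at 0.870 to 3.21 CPM in controls and 7.12 to 13.2 CPM in knockouts. None of the 5 is a receptor or junction gene of the lists.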

How the data were processed

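Raw tag counts per gene symbol for 15 SOLiD SAGE libraries were deposited by the authors, with a second table of signal values that, as tested here, equal the deposited counts over a size factor of each library (deviation at most 5.4e-10). DESeq2, without a version, and the builds mm10 and GRCm38.p1 are named per the submitters' processing notes. Aligner and counting are not given in the sources used here. All 360 rows without a symbol hold 0 counts and were dropped. Counts were tested with edgeR 4.0.16 (R 4.3.3, TMM, quasi-likelihood, filterByExpr minimum count 10, Benjamini-Hochberg 0.05), leaving 11062 genes, after tests on simulated data. Log2 CPM used a prior count of 2 and permutation tests, two-sided, 100000 shuffles within groups. No 2 libraries of the same group agreed within sampling noise. The members, lists and tests were chosen with earlier results of these data known.

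The genes named are all members, called list genes (or the 2 of lowest p), Lrp4, Ache, Colq, Myog, Ncam1, Runx1, Chat, S100b, the 5 most like Chrna2, its neighbours and Cpt1b. Of the genes this rule chose, 1 is not reported here. Alternatives were DESeq2 1.42.0, limma 3.58.1 voom, RLE, library totals, the authors' size factors, no filter, a replicate block, another prior and leaving out libraries. Library totals of 8334436 to 19397255 tags limit precision for genes of few tags.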

Additional observations from a re-analysis of the deposited data

Results flagged for a closer look

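Among the genes named, 80 gene and group combinations were examined for a library far from the rest of its group, and 11 were found. Chance gives about 1 in 20 where values are normally distributed and the combinations independent. CPM of tag counts need not be normal and the genes share libraries, so that rate is only a rough guide. No member was among the 11. Of the 11, 9 were in control 7 or knockout 4. Scara3 stood at 13.9 CPM in control 7 (other controls 2.61 to 5.33) and at 12.6 CPM in knockout 4 (others 1.55 to 5.08). Scara5 stood at 31.8 CPM in control 7 (12.3 to 18.1) and 38.2 CPM in knockout 4 (9.70 to 15.2). Lynx1 stood at 34.8 CPM in control 7 (13 to 21.2) and 32.7 CPM in knockout 4 (11.7 to 20.5). Ccdc25 was high in control 7 at 7.64 CPM (3.89 to 5.47). In knockout 4, Clu was high at 22 CPM (8.54 to 11.2) and Myog at 1.71 CPM (0.407 to 0.886). Ncam1 was high in knockout 5 at 3.46 CPM (1.69 to 2.44) and Tmem171 in control 3 at 4.92 CPM (0.716 to 2.49).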

How the results depend on the processing

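Chrna2 passed in 23 of 23 alternatives (log2 fold change 2.99 to 3.25), as did Ephx2 and Dach2, and Chrna1 passed in 22 (0.65 to 0.81). The other 6 tested members passed in none. Over all genes 2.17% passed in the main fit. The same contrast chose the members, and most alternatives share nearly all libraries. The counts for members therefore describe dependence on processing and are not further support. With the replicate number as a block, 1 member was called higher (Chrna1, at 0.68, did not pass), with 98 genes higher and 19 lower over the table, against 185 and 55. Tnnt3 was lost with the block (edgeR adjusted p = 0.0984). Same-numbered libraries did not deviate together (correlations from -0.45 to 0.31, and 1 of the 7 numbers had its own number as best partner). This check could miss a pairing weaker than the other differences between libraries, so it cannot decide whether the numbers pair the mice. The labels name no pairing, and within each group the replicate numbers follow the ascending numbers in the library labels. DESeq2 called 302 higher and 159 lower. Leaving out 1 library gave 131 to 311 higher and 30 to 154 lower, the most without control 7. Leaving out control 7 and knockout 4 together, chosen after seeing the data, gave 148 lower. The number of member pairs that passed was 0, and 0 to 1 when 1 library was left out, Chrna1 with Chrnb1 without knockout 2 (r = 0.76, adjusted permutation p = 0.0339). Without control 7, Myh1 of the skeletal muscle list passed (0.98, adjusted p = 0.0414). The cause of these changes was not tested. Depth limits the precision of Chrnd, Myog and the control level of Chrna2.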

Other observations

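Col25a1, a membrane-spanning collagen needed for motor axons to enter developing muscle, was under the low-count filter and was singled out after its values were seen. Its 8 control libraries held 0 to 2 tags each, 4 in all, and its 7 knockout libraries 2 to 7 tags each, 32 in all. The highest control (0.145 CPM) and the lowest knockout (0.178 CPM) both held 2 tags, so the groups touch in tags and are apart in CPM only through the scaling of the libraries. Over all tested genes 1.19% had groups that did not overlap in CPM. Without the filter it was the 1 gene of the synapse list to pass, with a log2 fold change of 2.83 ± 0.60 and an edgeR adjusted p of 0.0147. That fold change depends on the prior count at such low levels.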
